A study of Mus musculus with 31 samples.

Results

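The oligoadenylate synthetase (OAS) family was examined across both count tables of the study, by taking the rows of 8 named genes: *Oas1a*, *Oas1b*, *Oas1c*, *Oas1g*, *Oas2*, *Oas3*, *Oasl1* and *Oasl2*. The members were taken by name, with earlier results of these data known. The *Oas1* copies *Oas1d*, *Oas1e*, *Oas1f* and *Oas1h* were not among them. All 8 were present among the 54532 genes of the microglial table and among the 48795 genes of the hippocampal table. RNA-seq had been performed on hippocampi of tau transgenic mice and on primary microglia with and without *Cgas*, which encodes the DNA sensor cGAS, to ask whether cGAS mediates the interferon response to tau. Hippocampi came from 6 *P301S* mice (3 females and 3 males), which carry a human tau transgene with the P301S mutation, and from 7 non-transgenic (Ntg) mice (3 females and 4 males), all 8 to 9 months old. The *Cgas* genotype of these mice is not stated in the labels. Microglia were grown from the cortices of newborn *Cgas*+/+ (labelled WT) and *Cgas*-/- (labelled Cgas KO) pups and were given vehicle, fibrils of tau, or DNA of herring testis (HT-DNA), which binds cGAS, with 3 libraries in each of the 6 groups. Whether the cultures of both genotypes were prepared together is not stated in the sources used here, so genotype and culture cannot be told apart. The study describes its microglial samples as biologically independent, whereas no label says how the libraries of a group were cultured, and p-values measure the spread between them.

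OAS enzymes bind double-stranded RNA and then make 2′-5′-linked oligoadenylates (2-5A), a messenger that leads to the cutting of cellular and viral RNA. Their genes are classic targets of type I interferon, whose signal reaches promoters through interferon-stimulated response elements (ISREs). In mice the *Oas1* gene has been duplicated many times. *Oas1a* and *Oas1g* encode active enzymes, *Oas1b* is interrupted by a stop codon in common laboratory strains, and *Oas1c* encodes a protein without synthetase activity. *Oas2* and *Oas3* encode larger proteins built from repeated OAS units. *Oasl2* encodes an active enzyme with a ubiquitin-like tail, and *Oasl1* an inactive relative that restrains translation of *Irf7* mRNA.

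In the GRCm38 annotation, *Oas2*, *Oas3*, *Oas1c*, *Oas1b*, *Oas1g* and *Oas1a* lay in this order on chromosome 5 between positions 120730333 and 120907521, and *Oasl2* and *Oasl1* lay 5792417 bp away, between 114896936 and 114937915. *Oas1c* (chr5:120800194-120812514, minus strand) and *Oas1b* (chr5:120812635-120824163, plus strand, annotated as a polymorphic pseudogene) start head to head, 120 bp apart. Promoter sequences of RefSeq (GRCm38.p6), which run from 250 bases before to 50 after a gene start, were matched for 6 of the 8 members, namely *Oas1a*, *Oas1c*, *Oas1g*, *Oas3*, *Oasl1* and *Oasl2*. They were searched on both strands for the ISRE core (GAAA, any 2 bases, and GAAA again), which occurs in 3.44% of 32851 promoters, and for the GAS element TTCNNNGAA, which occurs in 8.3%. Overlapping matches were merged for printing. The core was present in 4 of the 6 promoters. The sites are printed because the members that hold them can be followed through the responses below, with the matched letters in capitals, 5′ to 3′ on the strand of the gene:
Oas1a, chr5:120907523-120907552, minus strand: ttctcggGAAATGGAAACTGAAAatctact
Oas1g, chr5:120887609-120887638, minus strand: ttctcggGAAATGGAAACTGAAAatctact
Oas1c, chr5:120812606-120812635, minus strand: atgggacTTTCAGTTTCCATTTCccgggaa
Oas3, chr5:120777715-120777744, minus strand: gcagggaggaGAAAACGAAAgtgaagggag
The printed stretches of *Oas1a* and *Oas1g* were identical over all 30 bases. The *Oas1c* stretch holds the same 16 capitals on the opposite strand, between *Oas1c* and *Oas1b*, and its printed interval ends at the first annotated base of *Oas1b*. The GAS element was matched in the *Oas1a* promoter only, among the 6:
Oas1a, chr5:120907605-120907634, minus strand: aaagctcagacTTCAAAGAAcctggtcaga
Neither motif was matched in the *Oasl1* and *Oasl2* windows, which says only that these letters are not in these windows. A match is a description of letters and not of a bound factor.

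Between 17037459 and 25174764 reads per microglial library and between 25953296 and 35779977 per hippocampal library were counted on genes. Levels are given as normalized CPM (counts scaled to an equal library size), and differences as log2 fold changes of edgeR's quasi-likelihood test, with Benjamini-Hochberg adjustment over all genes tested. All 8 members passed the filter on low counts among the 13675 genes tested in microglia. A gene counted as called when its adjusted p was under 0.05 and its log2 fold change passed 1 (microglia) or 0.5 (hippocampi) in size. The microglial marker list (8 genes) summed to 3074 to 5339 CPM in the cultures. The neuronal list (4 genes) reached at most 1.80 CPM, the fibroblast list (4 genes) 5.06 CPM and the astrocyte list (5 genes) 12.6 CPM. The oligodendrocyte list (4 genes) summed to 50.3 to 113 CPM and the endothelial list (3 genes) to 20.6 to 277 CPM. Their most abundant genes were *Mbp* and *Flt1*, at means of 55.8 and 91.9 CPM. *Cgas* had 18.8 to 27.2, 33 to 35.3 and 39.2 to 44.3 CPM in *Cgas*+/+ microglia with vehicle, tau and HT-DNA, and 4.07 to 5.47, 6.83 to 7.45 and 3.76 to 4.18 CPM in *Cgas*-/- microglia. Reads of the locus remained in the knockout, all below the *Cgas*+/+ range, and whether these 3′ reads fall in the deleted part is not stated.

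In *Cgas*+/+ microglia the family was abundant before any stimulus and rose with both tau and HT-DNA. With vehicle the 8 members summed to 562 ± 92.6 CPM (SD, n = 3), with tau to 1295 ± 122 CPM and with HT-DNA to 1725 ± 75.8 CPM. Tau raised 5 of the 8 members past both thresholds, at a background of 2.89% of all genes tested, and the other 3 (*Oas1a*, *Oas1c* and *Oas1g*) passed the adjusted p but not the minimum fold. By adjusted p alone, 8 of 8 rose where 15.8% of all genes did. HT-DNA raised 8 of 8, at a background of 5.29%. The median log2 fold change of the members was 1.13 for tau and 1.53 for HT-DNA, beside -0.01 and -0.03 over all genes tested. In both comparisons no member's treated libraries overlapped its vehicle libraries, which held in the upward direction for 21.7% of all genes with tau and for 26% with HT-DNA. Marker lists of other cells moved in the same comparisons. The endothelial list (3 genes, 1 of them tested) summed to 86.4 to 97.7 CPM with vehicle, 98.8 to 123 CPM with tau and 274 to 277 CPM with HT-DNA. Its tested gene, *Flt1*, was called with HT-DNA. The astrocyte list summed to 4.15 to 4.92, 7.89 to 9.99 and 9.64 to 12.6 CPM, with 2 of its 4 tested genes called for tau and 1 for HT-DNA, and 1 oligodendrocyte gene of 3 tested was called for HT-DNA. Their part in the result was not tested.

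**Figure D1:**
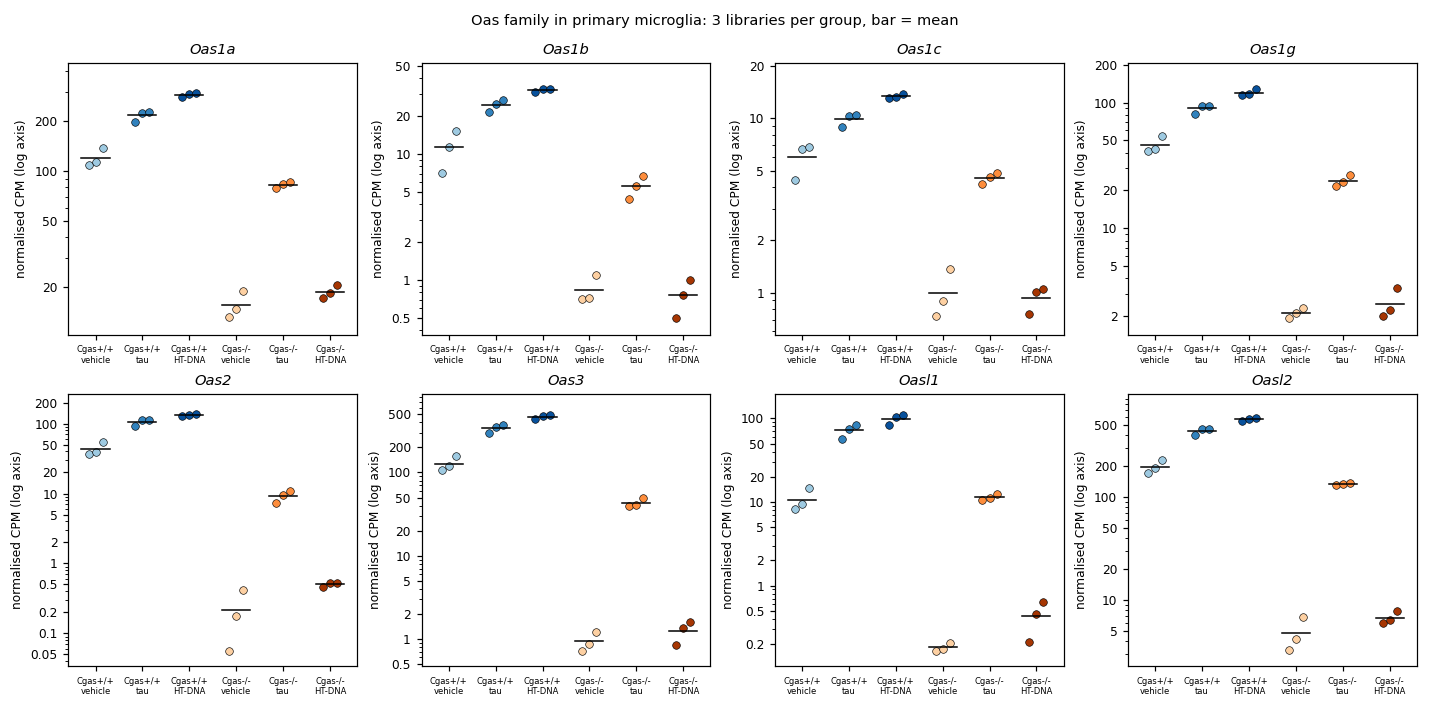
Normalized CPM (log axis, scaled for each gene) of the 8 members in the 6 microglial groups, with 1 point per library ordered by level within a group and a bar at the mean. In every panel the *Cgas*+/+ group means fall in the order HT-DNA, tau, vehicle, and *Cgas*-/- tau stands far above the other *Cgas*-/- groups, at 21.5% to 106% of the *Cgas*+/+ vehicle mean.

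Among the enzymes of the *Oas1* group, *Oas1a* had 138, 109 and 113 CPM in the 3 vehicle libraries of *Cgas*+/+ microglia, 223, 198 and 226 CPM with tau and 278, 294 and 291 CPM with HT-DNA. All 3 treated libraries of each kind were above the highest vehicle library, and the HT-DNA libraries were above the tau libraries. The log2 fold change was 0.85 ± 0.08 (SE, adjusted p = 4.39e-10) for tau and 1.26 ± 0.08 (SE, adjusted p = 3.89e-14) for HT-DNA. *Oas1g*, its nearest copy, had 54.1, 43 and 40.9 CPM with vehicle, 93.7, 81.1 and 94.2 CPM with tau and 115, 128 and 116 CPM with HT-DNA. Its order of groups was that of *Oas1a*, again without overlap. It rose by 0.96 ± 0.09 (SE, adjusted p = 6.04e-10) with tau on the log2 scale, short of the minimum fold, and by 1.38 ± 0.09 (SE, adjusted p = 1.01e-13) with HT-DNA. The transcripts of these copies share sequence: of the distinct 50-base stretches in *Oas1a* transcripts, 57.6% also occur in other genes, mainly *Oas1g*, and 45.7% of those of *Oas1g*, mainly in *Oas1a*. In the last 300 bases, where 3′ libraries read, the shares were 21.1% and 39.8%. How reads that match both were counted is not given in the sources used here, so the split between *Oas1a* and *Oas1g* is uncertain.

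*Oas2* and *Oas3* passed the minimum fold with both treatments. *Oas2* had 54.1, 38.9 and 36.3 CPM with vehicle, 111, 93.2 and 114 CPM with tau and 129, 132 and 137 CPM with HT-DNA, a log2 fold change of 1.29 ± 0.10 (SE, adjusted p = 4.41e-11) for tau and 1.62 ± 0.10 (SE, adjusted p = 1.15e-13) for HT-DNA. *Oas3*, the form with the greatest number of OAS units, had 157, 107 and 119 CPM with vehicle, 376, 295 and 352 CPM with tau and 436, 479 and 485 CPM with HT-DNA. Both genes were higher in every treated library than in any vehicle library. *Oas3* rose by 1.42 ± 0.10 (SE, adjusted p = 2.07e-12) with tau and by 1.87 ± 0.10 (SE, adjusted p = 1.6e-15) with HT-DNA. Nearly all of the *Oas2* and *Oas3* sequence was their own, with 0% and 0.31% of 50-base stretches shared with other genes.

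*Oasl2* was the member with the highest CPM in these cells. It had 227, 173 and 191 CPM with vehicle, 455, 397 and 455 CPM with tau and 549.8, 580.0 and 593 CPM with HT-DNA, and rose by 1.14 ± 0.09 (SE, adjusted p = 1.48e-11) and 1.54 ± 0.09 (SE, adjusted p = 8.23e-15) on the log2 scale. *Oasl1* started from 14.5, 8.18 and 9.34 CPM with vehicle and reached 74.8, 57.1 and 83.8 CPM with tau and 83.7, 108 and 103 CPM with HT-DNA. Its log2 fold changes, 2.74 ± 0.14 (SE, adjusted p = 2.08e-14) for tau and 3.20 ± 0.14 (SE, adjusted p = 8.67e-17) for HT-DNA, were larger than those of the other 7 members. In ratios of means the *Oasl1* increase was 6.73-fold with tau and 9.21-fold with HT-DNA, beside a median over the 8 members of 2.18-fold and 2.89-fold.

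*Oas1b* and *Oas1c* were less abundant. Of their 50-base stretches, 2.78% and 9.82% also occur in other genes, most often *Oas1g* and *Oas1e*. In the last 300 bases the shares were 11.2% and 8.26%, and how such reads were counted is not given. *Oas1b* had 15.3, 7.05 and 11.4 CPM with vehicle, 24.9, 21.5 and 26.6 CPM with tau and 32.6, 31.1 and 32.8 CPM with HT-DNA, and *Oas1c* had 6.69, 4.41 and 6.80, 8.89, 10.4 and 10.3 and 13, 13.7 and 13.3 CPM. Every treated library of both genes was above every vehicle library. *Oas1b* rose by 1.11 ± 0.16 (SE, adjusted p = 2.66e-06) with tau and 1.52 ± 0.16 (SE, adjusted p = 4.68e-09) with HT-DNA. *Oas1c*, which shares the intergenic 120 bp and its ISRE letters with *Oas1b*, rose by 0.73 ± 0.15 (SE, adjusted p = 0.000275) with tau and 1.17 ± 0.14 (SE, adjusted p = 1.06e-07) with HT-DNA. Without vehicle replicate 2, the vehicle library in which both were lowest, *Oas1b* fell short of the minimum fold with tau and *Oas1c* with HT-DNA (log2 fold changes of 0.85 and 0.98), with 4 members called for tau and 7 for HT-DNA.

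HT-DNA left higher levels than tau in *Cgas*+/+ cells. For 7 of the 8 members every HT-DNA library was above every tau library, which was the case for 22.9% of all genes tested, and for *Oasl1* the ranges overlapped. The differences lay between 0.33 ± 0.10 (SE) in *Oas2* and 0.46 ± 0.12 in *Oasl1* on the log2 scale. All 8 had an adjusted p under 0.05 (17.8% of all genes did in this direction), and none passed the minimum fold of edgeR's call rule (1.49% of all genes). At an unadjusted p under 0.05, edgeR gave 8 and DESeq2 7 of the 8, beside 42.7% and 41.1% of all genes in either direction, and DESeq2 called none past the fold either. With library totals in place of TMM scaling, the median of all genes in this comparison shifted to -0.14, and 29.3% instead of 45.6% of the called genes were higher. With that scaling the members' differences were 0.20 to 0.33, and *Oas1b*, *Oas1c* and *Oas2* no longer had an adjusted p under 0.05 (0.126, 0.0707 and 0.0841). Per the study's methods RNA was isolated at the same time after both agents, and their doses by mass differed.

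Without *Cgas* and without stimulus the family was low. The 8 members summed to 25.8 ± 5.42 CPM (SD, n = 3) in *Cgas*-/- microglia with vehicle, beside 562 ± 92.6 CPM in *Cgas*+/+ microglia. All 8 were called lower, at a background of 7.35% of all genes, and no member's ranges overlapped between genotypes (30.9% of all genes in this direction). The mean level in *Cgas*-/- cells was between 0.502% (*Oas2*) and 16.7% (*Oas1c*) of that in *Cgas*+/+ cells. The median log2 difference of the members was -4.90, beside -0.01 over all genes. The same direction held with tau and with HT-DNA, where 8 of 8 were again called lower in *Cgas*-/- cells, at backgrounds of 7.41% and 11.8%. The genotypes also differed in other genes: the microglial marker list summed to 5123 to 5209 CPM in *Cgas*+/+ and 3102 to 3225 CPM in *Cgas*-/- vehicle libraries, with 8 of its 8 genes lower by adjusted p and 1 past the fold, the endothelial list (3 genes) to 86.4 to 97.7 and 20.6 to 24.8 CPM, and the fibroblast list (4 genes) to 2.48 to 4.16 and 0.0521 to 0.220 CPM. Their part in the result was not tested. The endothelial sum was mostly that of *Flt1*, the only gene of its list that was tested. In bulk RNA, fewer cells of a type and less RNA per cell cannot be told apart.

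The size of the difference varied between members. *Oas1a* had 13.3, 18.9 and 14.9 CPM with vehicle, 86.0, 78.7 and 83.7 CPM with tau and 18.4, 20.7 and 17.1 CPM with HT-DNA in the *Cgas*-/- libraries, the highest level of the family by CPM with vehicle and with HT-DNA. Its difference between genotypes was -2.93 ± 0.09 (SE, adjusted p = 9.82e-20) with vehicle on the log2 scale. *Oas1g* had 2.12, 2.35 and 1.94 CPM with vehicle, 23.3, 26.7 and 21.6 CPM with tau and 2.23, 3.33 and 2.01 CPM with HT-DNA, and differed by -4.44 ± 0.15 (SE, adjusted p = 1.67e-19) with vehicle. For *Oas1b* the *Cgas*-/- libraries had 0.726, 1.09 and 0.704 CPM with vehicle, 4.41, 6.70 and 5.59 CPM with tau and 1.01, 0.762 and 0.502 CPM with HT-DNA, and for *Oas1c* 0.893, 0.730 and 1.36 CPM with vehicle, 4.85, 4.19 and 4.58 CPM with tau and 1.01, 1.04 and 0.752 CPM with HT-DNA. These low copies differed between genotypes by -3.74 ± 0.27 (SE, adjusted p = 3.28e-12) and -2.54 ± 0.21 (SE, adjusted p = 4.23e-11) with vehicle. In all 4 genes of the *Oas1* group the tau libraries stood apart from, and above, the vehicle and HT-DNA libraries of the same genotype.

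The larger enzymes were also low in *Cgas*-/- cells. *Oas2* had 1, 8 and 4 counts in the vehicle libraries, where *Cgas*+/+ vehicle libraries had 1220, 900 and 672, and 10, 13 and 11 with HT-DNA. With tau it had 247, 230 and 187 counts, or 10.9, 9.63 and 7.32 CPM. The difference between genotypes was -7.60 ± 0.26 (SE, adjusted p = 4.17e-19) with vehicle and -3.52 ± 0.12 (SE, adjusted p = 7e-19) with tau. *Oas3* had 0.726, 1.20 and 0.880 CPM with vehicle, 48.9, 41.2 and 39.9 CPM with tau and 0.848, 1.6 and 1.34 CPM with HT-DNA, and differed by -7.08 ± 0.19 (SE, adjusted p = 1.3e-21) with vehicle and -2.98 ± 0.10 (SE, adjusted p = 7.1e-19) with tau. With HT-DNA the *Oas3* difference was -8.48 ± 0.17 (SE, adjusted p = 7.81e-25), a ratio of means of 369, beyond that of the other 7 members.

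*Oasl2* had 3.29, 6.88 and 4.18 CPM with vehicle, 138, 134 and 132 CPM with tau and 6.41, 7.82 and 6.06 CPM with HT-DNA in *Cgas*-/- microglia, and differed from *Cgas*+/+ by -5.36 ± 0.13 (SE, adjusted p = 1.59e-22) with vehicle, -1.69 ± 0.09 (SE, adjusted p = 2.05e-15) with tau and -6.40 ± 0.12 (SE, adjusted p = 5.03e-25) with HT-DNA. *Oasl1*, the restraint on *Irf7* translation, had only 3, 4 and 4 counts in the vehicle libraries and 4, 16 and 11 with HT-DNA, but 281, 263 and 272 with tau. In CPM these were 0.167, 0.208 and 0.176 CPM with vehicle, 12.4, 11 and 10.6 CPM with tau and 0.212, 0.642 and 0.460 CPM with HT-DNA. Its tau level in *Cgas*-/- cells overlapped the vehicle range of *Cgas*+/+ cells, at 106% of that mean, and differed from the *Cgas*+/+ tau level by -2.66 ± 0.14 (SE, adjusted p = 3.39e-15).

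Tau raised the family in *Cgas*-/- microglia as well. All 8 members were called higher than with vehicle, at a background of 2.46% of all genes tested, and every tau library was above every vehicle library for every member (17.4% of all genes). The log2 fold changes ran from 2.15 ± 0.21 (SE, adjusted p = 5.48e-09) in *Oas1c* through 2.40 ± 0.10 (SE, adjusted p = 2.71e-17) in *Oas1a* to 5.52 ± 0.21 (SE, adjusted p = 1.38e-17) in *Oas3* and 5.90 ± 0.39 (SE, adjusted p = 1.32e-12) in *Oasl1*. The summed level reached 315 ± 12.1 CPM, which was below the 562 ± 92.6 CPM of unstimulated *Cgas*+/+ cells. For 6 members every *Cgas*-/- tau library stayed below every *Cgas*+/+ vehicle library, as for 27.2% of all genes, and for *Oas1c* and *Oasl1* these ranges overlapped.

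HT-DNA gave no call in *Cgas*-/- microglia: 0 of 8 members by edgeR and 0 by DESeq2, at backgrounds of 0.0146% of all genes higher and 0.00731% lower. At an unadjusted p under 0.05 edgeR gave 2 members (*Oas1a* and *Oasl2*) and DESeq2 gave 3 (*Oas2*, *Oasl1* and *Oasl2*), where 12.3% and 11.1% of all genes did so in either direction. The log2 fold changes lay between -0.18 ± 0.45 (SE) in *Oas1b* and 1.29 ± 0.84 in *Oasl1*, with adjusted p between 0.208 and 0.926 in edgeR's test. Over 7 alternative fits by edgeR or DESeq2, adjusted p ran from 0.000602 to 0.233 in *Oasl2* and from 0.0306 to 0.419 in *Oas1a*. Their differences there were 0.48 to 0.51 and 0.23 to 0.26, short of the minimum fold. Leaving out 1 library gave *Oasl2* differences of 0.32 to 0.85, with edgeR adjusted p of 0.0154 to 0.613. For *Oas2* and *Oasl1*, with 1 to 16 counts per library in these groups, the standard errors were 0.72 and 0.84. For 2 members, *Oas2* and *Oasl1*, every HT-DNA library was nevertheless above every vehicle library, which held for 10.4% of all genes in this direction.

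**Figure D2:**
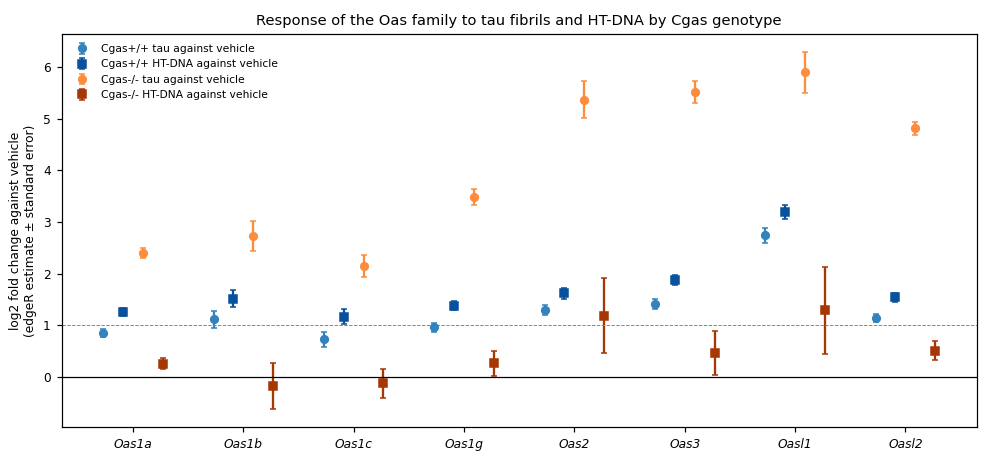
Log2 fold changes against vehicle (edgeR estimate, with bars of 1 standard error) of the 8 members for tau (circles) and HT-DNA (squares) in *Cgas*+/+ (blue) and *Cgas*-/- (orange and brown) microglia. The dashed line is the minimum fold of 1. The *Cgas*-/- tau points are the highest for each member, from 2.15 to 5.90, while the *Cgas*-/- HT-DNA points lie between -0.18 and 1.29.

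The responses of the genotypes were then compared directly. On the log2 scale the tau response was larger in *Cgas*-/- than in *Cgas*+/+ cells for 8 of 8 members (interaction test, adjusted p under 0.05, background 3.61% of all genes in this direction). The difference was smallest in *Oas1c*, at 1.42 ± 0.27 (SE, adjusted p = 0.000926), and largest in *Oas3*, at 4.10 ± 0.26 (SE, adjusted p = 1.99e-11). On the linear scale the order was the opposite. Tau added 214 ± 28.3 CPM (SE of the difference, n = 3 and 3) of *Oas3* in *Cgas*+/+ cells and 42.4 ± 2.81 CPM in *Cgas*-/- cells. For *Oas2* the increments were 62.9 ± 8.53 and 9.06 ± 1.05 CPM, and for *Oas1a* they were 96.1 ± 12.7 and 67.1 ± 2.74 CPM. The increment in CPM was smaller in *Cgas*-/- cells for each of the 8 members, by a margin within the standard errors in *Oas1c* (3.88 ± 0.915 and 3.54 ± 0.270 CPM). The direction of the difference in response depended on the scale, and the vehicle levels from which the responses started differed between genotypes as given above.

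For HT-DNA the estimated response was smaller in *Cgas*-/- cells for 8 of 8 members, in log2 units and in CPM. The interaction passed the adjusted p for 6 of 8 members, where 16.6% of all genes passed in this direction, with differences from -1.0 ± 0.13 (SE) in *Oas1a* to -1.69 ± 0.49 in *Oas1b*. It did not pass for *Oas2*, at -0.43 ± 0.84 (SE, adjusted p = 0.736), nor for *Oasl1*, at -1.91 ± 1.04 (SE, adjusted p = 0.166), the members with the fewest counts in *Cgas*-/- cells. DESeq2 passed 7, adding *Oasl1*, and the share of all genes it passed is not given here. At an unadjusted p under 0.05, DESeq2 gave 7 of 8 members and 5569 of 13674 genes in either direction. By edgeR these were 6 of 8 members and 5767 of 13675 genes. Without *Cgas*-/- vehicle replicate 2, 4 members passed and the *Oas2* difference turned to 0.36 (adjusted p = 0.817). In CPM, HT-DNA added 377 ± 20.6 of *Oasl2* in *Cgas*+/+ cells and 1.98 ± 1.21 in *Cgas*-/- cells.

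The order of the members depended on the scale and on the group. Per kilobase of exon, *Oas1a* led in every microglial group, with 63.5 CPM per kb in *Cgas*+/+ vehicle, 115 with tau and 152 with HT-DNA, and 8.32, 43.9 and 9.95 in the *Cgas*-/- groups. *Oasl2* came next in the *Cgas*+/+ groups (30.9, 68.3 and 90.1 CPM per kb), followed in the tau and HT-DNA groups by *Oas3* and *Oas1g*. Neighbors in this order did not overlap in *Cgas*+/+ HT-DNA cells, whereas *Oas1g* and *Oas3* overlapped with vehicle, as did *Oas1b* and *Oasl1*. In *Cgas*-/- vehicle cells the ranges of *Oas1g*, *Oasl2*, *Oas1b* and *Oas1c* overlapped from neighbor to neighbor, at 0.912 to 0.414 CPM per kb. Libraries of the 3′ kind do not gain reads with exon length, so the order by CPM is also given: *Oasl2* led in the 3 *Cgas*+/+ groups and in *Cgas*-/- tau, and *Oas1a* in the other *Cgas*-/- groups. *Oas1a* made up 21.3% of the family's CPM in *Cgas*+/+ vehicle cells and 60.9% in *Cgas*-/- vehicle cells, while *Oas3* went from 22.7% to 3.63%.

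*Oas1h*, another *Oas1* copy, had 11 to 31 counts per *Cgas*+/+ library and 0 to 14 per *Cgas*-/- library, and *Oas1d*, *Oas1e* and *Oas1f* had at most 2. With tau in *Cgas*-/- cells *Oas1h* rose by 3.32 (adjusted p = 0.00374).

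Other sensors and effectors of double-stranded RNA were read beside the family. Of 7 (*Eif2ak2*, *Adar*, *Ifih1*, *Ddx58*, *Dhx58*, *Tlr3* and *Zbp1*), 5 were called higher with tau and 6 with HT-DNA in *Cgas*+/+ cells, 7 with tau and 0 with HT-DNA in *Cgas*-/- cells, and 7 were lower in *Cgas*-/- than in *Cgas*+/+ cells in each of the 3 treatments. *Zbp1*, a sensor of Z-form nucleic acids, rose by 1.51 (adjusted p = 1.46e-11) with tau in *Cgas*+/+ and by 4.02 (adjusted p = 1.2e-15) in *Cgas*-/- cells. *Tlr3*, the endosomal receptor, had an interaction of tau with genotype of 0.09 (adjusted p = 0.850). Of 10 genes of type I interferon signaling, 3 were called higher with tau and 4 with HT-DNA in *Cgas*+/+ cells, and 4 and 0 in *Cgas*-/- cells. *Irf7*, the factor that amplifies interferon production, rose by 1.57 (adjusted p = 1.26e-11) with tau in *Cgas*+/+ and by 4.83 (adjusted p = 4.46e-18) in *Cgas*-/- cells. *Ifnb1*, which encodes interferon-β, had 0 to 10 counts with vehicle, 1 to 11 with tau and 71 to 96 with HT-DNA in *Cgas*+/+ libraries, and at most 1 in a *Cgas*-/- library.

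The genes whose pattern over the 6 microglial group means came nearest to the mean profile of the 8 members, by root mean square difference of log2 CPM after centering on *Cgas*+/+ vehicle, were *BC147527* (0.18), *Zbp1* (0.23), *Gm12250* (0.38), *Irf7* (0.42) and *Xaf1* (0.42) among 13675 genes. By the same measure *Oas1g* (0.27) and *Oasl2* (0.36) lay nearest among the members themselves and *Oas2* (1.36) farthest. The mean profile of the family, in log2 units from *Cgas*+/+ vehicle, was 1.3 with tau and 1.71 with HT-DNA in *Cgas*+/+ cells, and -4.77, -0.87 and -4.38 with vehicle, tau and HT-DNA in *Cgas*-/- cells.

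In hippocampi the family was expressed at far lower levels and varied between *P301S* mice. The mouse tau gene *Mapt*, on which reads of the human transgene may have been counted (not stated), had 519 to 642 CPM in Ntg and 858 to 1125 CPM in *P301S* mice. The 8 members together had 4.25, 5.09 and 7.46 CPM (lowest, median and highest) in Ntg mice and 5.5, 28.3 and 71.3 CPM in *P301S* mice. Of the 8, 5 passed the filter on low counts among 16453 genes tested. Of these 5, 2 were called higher, *Oas1a* and *Oasl2*, at a background of 1.32% of all genes. *Oas1a* had 4 to 13 counts per Ntg and 7 to 122 per *P301S* mouse. It passed the filter mainly through *P301S* mice, the group in which it was high, and its call is read with that limit. No member separated the groups without overlap, which 0.438% of all genes did in this direction.

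*Oasl2*, the member with most reads in this tissue, had 2.35, 3.43 and 4.76 CPM in Ntg mice and 19.4, 21.7, 3.37, 4.55, 52.5 and 24.3 CPM in *P301S* mice 29, 36, 43, 63, 65 and 77. Mice 29, 36, 65 and 77 were above every Ntg mouse, and mice 43 and 63 lay within the Ntg range. The log2 fold change was 2.56 ± 0.50 (SE, adjusted p = 0.0303). *Oas1a* had 0.140, 0.258 and 0.429 CPM in Ntg mice and 2.84, 1.03, 0.245, 0.363, 4.62 and 1.69 CPM in the same *P301S* mice. The same 4 mice were high, and the difference was 2.75 ± 0.58 (SE, adjusted p = 0.0362). Both calls depended on single mice. Leaving out any 1 of Ntg mice 35, 46, 61, 62, 68 and 71 or of *P301S* mice 29, 36 and 65 left 0 members called. Leaving out Ntg mouse 55 left 1, *Oasl2*, because *Oas1a* then fell below the filter on low counts and was not tested. Leaving out *P301S* mouse 77 kept both calls (adjusted p = 0.0318 for *Oasl2* and 0.0370 for *Oas1a*). Leaving out *P301S* mouse 43 or 63 gave 4 and 5. The share of all genes called in fits without 1 mouse is not given here, so these counts have no background beside them. In the fits that left 0, the log2 fold changes were 2.04 to 2.63 for *Oasl2* and 2.21 to 2.87 for *Oas1a*, with adjusted p of 0.0603 to 0.0859 and 0.0680 to 0.0994.

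The other tested members had positive differences that missed the threshold. *Oas2* had 0.140, 0.303 and 0.661 CPM in Ntg and 0.245, 1.29 and 4.28 CPM in *P301S* mice (lowest, median and highest), a difference of 2.08 ± 0.57 (SE, adjusted p = 0.0810). *Oas1b* had 0.0738, 0.245 and 0.446 and 0.0351, 1.07 and 2.05 CPM, a difference of 2.01 ± 0.56 (SE, adjusted p = 0.0838). *Oas1c* had 0.701, 0.826 and 1.12 and 0.725, 1.46 and 2.16 CPM, a difference of 0.70 ± 0.22 (SE, adjusted p = 0.122). In these 3 the groups overlapped, because mouse 43 (*Oas1b* and *Oas2*) or mouse 63 (*Oas1c* and *Oas2*) was not above every Ntg mouse. DESeq2 called 4 of the 5, adding *Oas1b* (adjusted p = 0.0197) and *Oas2* (adjusted p = 0.0109). *Oas1b* had 2 to 15 counts per Ntg and 1 to 57 per *P301S* mouse, and *Oas2* had 4 to 20 and 7 to 113. Like *Oas1a*, they passed the filter mostly through *P301S* mice, and their calls are read with that limit. The share of all genes that DESeq2 called is not given here. At an unadjusted p under 0.05, DESeq2 gave 5 of 5 members and 2776 of 16402 genes in either direction. By edgeR these were 5 of 5 members and 2612 of 16453 genes.

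*Oas1g*, *Oas3* and *Oasl1* were below the filter in hippocampi and were compared by permutation, with an exact test on both sides of log2(CPM + 0.05), over all 1716 splits of the 13 mice, whose smallest possible p is 0.000583. *Oas3* had 0 to 5 counts per Ntg and 3 to 35 per *P301S* mouse, with a difference of 2.23 (p = 0.00524, exact). *Oasl1* had 1 to 10 and 4 to 89 counts and a difference of 1.86 (p = 0.0157, exact). *Oas1g* had 0 to 2 and 0 to 25 counts and a difference of 1.70 (p = 0.0536, exact), which missed the threshold and passed it when mouse 43 or 63 was left out (p = 0.0101 for each, exact). The pseudocount makes these differences smaller than those of the counts themselves. The p-values are not adjusted, and the same test was computed for 8 members.

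**Figure D3:**
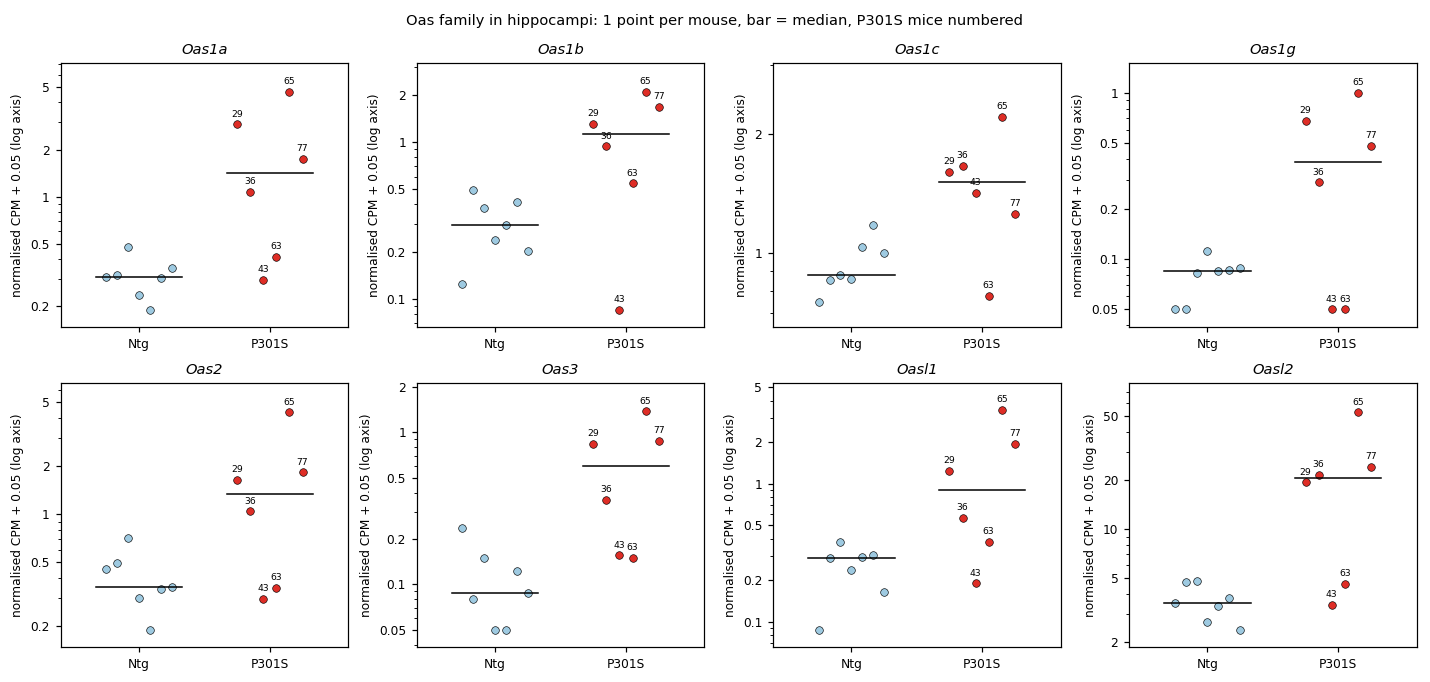
Normalized CPM + 0.05 (log axis, scaled for each gene) of the 8 members in hippocampi, with 1 point per mouse, a bar at the median and the *P301S* mice numbered. Mice 29, 36, 65 and 77 lie above all 7 Ntg mice in every panel, while mice 43 and 63 lie among or below them except for *Oas1c* in mouse 43 and *Oas1b* in mouse 63.

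The members varied together between mice. All 8 were above every Ntg mouse in *P301S* mice 29, 36, 65 and 77, whereas 1 was in mouse 43 (*Oas1c*) and 1 in mouse 63 (*Oas1b*). The summed family level was 29.2, 27.3, 71.3 and 33.8 CPM in the first 4 and 5.5 and 6.86 CPM in mice 43 and 63. Both sexes were among the high mice and among the low mice, and the interaction of sex with genotype gave 0 of 5 members by edgeR and by DESeq2, adjusted or at an unadjusted p under 0.05. Of all genes, 0% passed the adjusted p in edgeR's test, and 23.7% (edgeR) and 24.5% (DESeq2) had an unadjusted p under 0.05. Some marker lists moved with these values and others did not. The microglial list (8 genes, none without counts) summed to 365 to 447 CPM in Ntg mice and to 1077, 1008, 1067 and 644 CPM in mice 29, 36, 65 and 77, but 376 and 418 CPM in mice 43 and 63. The astrocyte list (5 genes) summed to 3382 to 4170.5 CPM in Ntg mice, to 6627, 7088, 6034 and 5481 CPM in the same 4 and to 3506 and 3823 CPM in mice 43 and 63. The T cell list (3 genes, 0 of them tested) was at 0 to 0.165 CPM in Ntg and 0.0701 to 1.69 CPM in *P301S* mice. The neuronal list was at 5736 to 8057 CPM in Ntg and 4874 to 7484 CPM in *P301S* mice. The endothelial list was at 83.1 to 108 and 80.9 to 106 CPM, and the fibroblast list at 31.7 to 111 and 22.4 to 110 CPM. The oligodendrocyte list was at 3049 to 6163 and 3842 to 7177 CPM. When the average level of homeostatic microglial genes entered the fit, 0 of 5 members were called. The log2 differences of *Oas1a* and *Oasl2* were then 1.31 (adjusted p = 0.301) and 1.12 (adjusted p = 0.0696). For *Oasl2* the unadjusted p of edgeR's test was 0.000153, beside 0.000148 without this covariate, and its SE was 0.21, beside 0.50. For *Oas1a* the unadjusted p was 0.0107, beside 0.000314. The part of these cells in the result was not tested.

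In hippocampi, of the 6 tested genes on the double-stranded RNA list, 3 were called higher: *Dhx58* at 1.3 (adjusted p = 0.0428), *Ifih1* at 1.28 (adjusted p = 0.0413) and *Eif2ak2* at 1.03 (adjusted p = 0.0326). Of the 9 tested genes on the interferon list, 2 were called, *Irf7* at 2.42 (adjusted p = 0.0303) and *Irf9* at 1.24 (adjusted p = 0.0303). *Ifnb1* had at most 1 count in any hippocampus. Over the 13 mice the genes nearest to the mean profile of the 5 tested members were *Parp14* (0.27), *Trim30a* (0.28), *Cd180* (0.29), *Gbp2* (0.29) and *Ifit3b* (0.29), by root mean square difference of log2 CPM centered on the Ntg mean. By CPM *Oasl2* led in both hippocampal groups, with 63.4% of the family's CPM in Ntg and 72.3% in *P301S* mice. It also had the highest mean per kilobase of exon, at 0.556 CPM per kb in Ntg and 3.29 in *P301S* mice, but its range overlapped that of the next member in both groups (*Oas1c* and *Oas1a*).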

How the data were processed

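RNA-seq counts were measured in 18 microglial and 13 hippocampal libraries. The deposited values are raw read counts per Ensembl gene, which the authors had not normalized. Per the labels, all libraries were 3′ mRNA libraries from RNA of a single kit. The study's methods name another RNA kit for hippocampi and no library kit, so what is said here of 3′ reads rests on the labels. Per the labels, the genome build was GRCm38, and edgeR and limma are named in the submitters' processing notes. The aligner, the counting step and the annotation version are not given in the sources used here.

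Counts were filtered with edgeR's filterByExpr, scaled by TMM and fitted with edgeR's quasi-likelihood test (edgeR 4.0.16, limma 3.58.1, R 4.3.3). One fit covered all 6 microglial groups, including interaction terms, and another covered hippocampi. P-values were adjusted by the Benjamini-Hochberg method over all genes tested. A call needed an adjusted p under 0.05 and, except for interactions, a log2 fold change beyond 1 in microglia or 0.5 in hippocampi. DESeq2 1.42.0, other scalings and filters, covariates, a replicate block and leaving out each library were alternatives. Scripts were tested on simulated data. All 8 members were named in the text, with genes of lists on other *Oas1* copies, interferon signaling and double-stranded RNA sensing, *Cgas*, *Mapt*, and the 5 genes of nearest pattern in each data set. Members and lists were chosen with earlier results of these data known. Some items are not reported here.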

Additional observations from a re-analysis of the deposited data

Results flagged for a closer look

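For 8 of 8 members the log2 response to tau differed between genotypes by a test of the difference itself (the interaction in edgeR's test). It was larger in *Cgas*-/- than in *Cgas*+/+ cells by 4.10 in *Oas3*, 4.08 in *Oas2*, 3.67 in *Oasl2*, 3.16 in *Oasl1*, 2.53 in *Oas1g*, 1.62 in *Oas1b*, 1.55 in *Oas1a* and 1.42 in *Oas1c*. In CPM the increment was smaller in *Cgas*-/- cells for each of these members, by a margin within the standard errors in *Oas1c*. The differences between increments in CPM were not tested.

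The log2 response to HT-DNA differed the other way for 6 members by the same test. It was smaller in *Cgas*-/- cells, with differences of -1.69 in *Oas1b*, -1.40 in *Oas3*, -1.29 in *Oas1c*, -1.11 in *Oas1g*, -1.03 in *Oasl2* and -1.0 in *Oas1a*.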

How the results depend on the processing

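The counts of members called in microglia moved by no more than 1.5 times under the alternatives, except that without a minimum fold tau gave 8 in *Cgas*+/+ cells and HT-DNA against tau gave 8. Leaving out 1 library gave 4 to 6 members for tau and 7 to 8 for HT-DNA in *Cgas*+/+ cells, and 4 to 6 for the HT-DNA interaction. In hippocampi DESeq2 and the fit without a filter on low counts each called 4 members, sex as a covariate left 1 and the homeostatic microglial marker mean as a covariate left 0. Leaving out 1 mouse gave 0 to 5 members, and the share of all genes called in those fits is not given here. The permutation difference of *Oas1g* ran from 1.3 to 2.17. The cause was not tested. Signs turned in small *Cgas*-/- differences when 1 library was left out: for HT-DNA against vehicle *Oas1b* ran from -0.41 to 0.055 (0.052 without *Cgas*-/- vehicle replicate 2), *Oas1c* from -0.30 to 0.20 (0.016 without HT-DNA replicate 3) and *Oas1g* from -0.013 to 0.42, and the HT-DNA interaction of *Oas2* ran from -0.82 to 0.36. Library totals in place of TMM put the median of all genes at -0.24 instead of -0.03 for HT-DNA in *Cgas*+/+ cells and at 0.22 instead of 0.03 for the HT-DNA interaction, and the direction of each interaction was kept. Replicate numbers did not pair the microglial libraries: residuals of same-numbered libraries correlated at -0.085 to 0.082, and 0 of 15 pairs passed 0.1 for each number. With the replicate block the counts of members called were unchanged, at 5, 8, 8 and 0 for tau and HT-DNA in *Cgas*+/+ and then in *Cgas*-/- cells, 8 in each comparison of genotypes, 0 for HT-DNA against tau, and 8 and 6 for the tau and HT-DNA interactions. In hippocampi the numbers name single mice and pair none. Counts were few, at 1 to 16 per library, for *Oas2* and *Oasl1* in *Cgas*-/- cells with vehicle or HT-DNA. In hippocampi *Oas1g*, *Oas3* and *Oasl1* were below the filter on low counts, and without it *Oas3* (adjusted p = 0.0381) and *Oasl1* (adjusted p = 0.0463) were called.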
